A study of Mus musculus with 6 samples.

Results

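The genes examined here form the interleukin 17 (IL-17) receptor and Act1 axis: the receptor subunit genes Il17ra, Il17rc, Il17rd and Il17re, the adaptor gene Traf3ip2, which encodes Act1, and the downstream regulator genes Nfkbiz, Zc3h12a, Cebpb and Cebpd. These 9 genes were taken by symbol from a table of 47480 genes, and all 9 were present. The set was chosen for the higher level of Traf3ip2 and Nfkbiz in the A2ARKO libraries, so the contrast between the genotypes is given for all 9 as a description. Where a fit over all genes places any of them past its threshold, that is not read as a test of them. The libraries hold RNA of chondrocytes, the cartilage cell type, isolated as primary cells from newborn mice. The A2ARKO group lacks the adenosine receptor encoded by Adora2a in all tissues and is labelled as on a C57BL/6 background. The WT group is C57BL/6 mice kept in the same facility. Each group has 3 libraries, each made from the trypsinized cells of 1 whole litter pooled, so p-values measure the spread between litters, and the labels name no treatment. Values are FPKM, sequenced fragments scaled to gene length and to the library total. Levels of different genes can be compared only as far as the gene lengths used are right, and those lengths are not given.

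The IL-17 cytokines IL-17A and IL-17F are made mainly by lymphocytes and act on stromal, epithelial and cartilage cells. IL-17A and IL-17F bind a receptor built from IL-17RA and IL-17RC, and Act1 joins the receptor tail through a domain that both proteins carry (SEFIR) and recruits TRAF proteins. The signal turns on NF-kappaB, C/EBP and MAP kinase pathways, and Act1 also helps to stabilize the mRNAs of chemokines and other inflammatory mediators. IkappaB-zeta, encoded by Nfkbiz, and the C/EBP factors act in the nucleus on target promoters, while the endonuclease Regnase-1, encoded by Zc3h12a, degrades mRNAs such as that of interleukin 6 and limits the response.

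The libraries differed in makeup, which bears on every comparison. Of 12 chondrocyte marker genes 10 were found by name, all above 0 in every library, and their summed level was 2142, 4272 and 5978 FPKM in A2ARKO replicates 1, 2 and 3, against 24242, 1212 and 386 FPKM in WT replicates 1, 2 and 3. WT replicate 1 was thus far richer in cartilage transcripts than the other two WT libraries. The summed level of 12 macrophage and leukocyte markers was 53.5, 30.3 and 26.5 FPKM in the A2ARKO libraries and 184, 1931 and 134 FPKM in the WT libraries, and that of 7 skeletal muscle markers was 30.6, 10.2 and 14.6 FPKM in A2ARKO libraries and 7.58, 975 and 19.1 FPKM in WT libraries. WT replicate 2 was highest for both. The 7 fibroblast markers summed to 3392 to 4768 FPKM in A2ARKO and 6390 to 9294 FPKM in WT, sums carried by the collagen genes. Dcn averaged 696 ± 340 FPKM in A2ARKO and 302 ± 108 FPKM in WT (SD, n = 3 each). Dcn, Lum, Pdgfra and Thy1 all overlapped between the groups. T cell markers summed to 1.45 to 2.33 FPKM in A2ARKO and 0.80 to 2.41 FPKM in WT, with Cd3e and Cd8a listed at 0 in every library, and 6 epithelial markers summed to 0.12 to 0.30 FPKM in A2ARKO and 0.24 to 0.33 FPKM in WT. Of 5 endothelial markers, 4 stayed below 1 FPKM everywhere. In such bulk libraries, fewer cells of a type and less RNA per cell cannot be told apart, and the part that makeup plays in the values that follow was not tested. The targeted gene Adora2a read 0.41, 0.54 and 0.66 FPKM in A2ARKO libraries and 9.36, 7.31 and 3.46 FPKM in WT libraries. The depth read from the steps between low values was 51.1 to 58.05 M reads in A2ARKO and 41.3 to 52.2 M reads in WT.

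**Figure D1:**
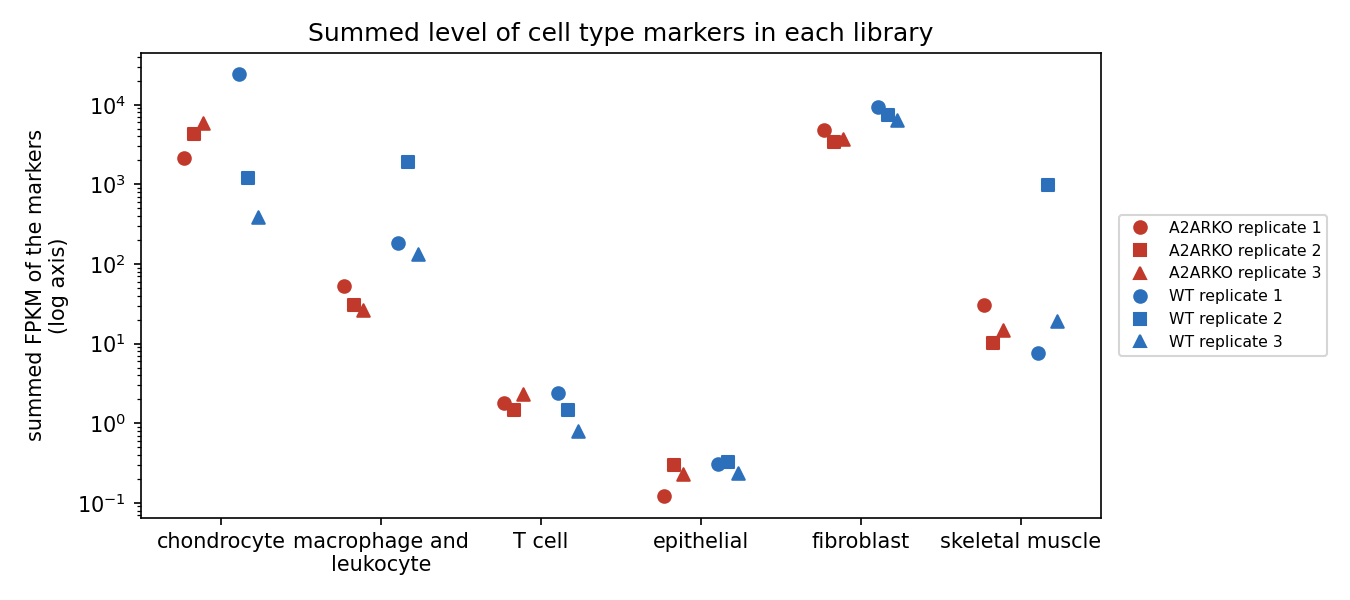
Summed FPKM of cell type marker genes (log axis) in each of the 3 A2ARKO and 3 WT libraries, 1 point per library. WT replicate 1 stands highest for chondrocyte markers at 24242 FPKM, and WT replicate 2 for macrophage and leukocyte markers at 1931 FPKM and for skeletal muscle markers at 975 FPKM.

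Il17rc, which encodes the receptor subunit that pairs with IL-17RA, was the most abundant receptor gene in every library. Il17rc (mm10 chromosome 6, 113471427 to 113483140, plus strand) had 17.7, 17.4 and 18.7 FPKM in A2ARKO libraries and 13.9, 12.8 and 13.9 FPKM in WT libraries. Every A2ARKO library lay above every WT library, by a small margin: the mean was 17.9 ± 0.675 FPKM in A2ARKO and 13.5 ± 0.624 FPKM in WT (SD, n = 3 each), a ratio of 1.33. Il17ra, encoding the subunit shared by most IL-17 receptors (chromosome 6, 120463247 to 120487559, plus strand), had 7.67, 6.52 and 7.15 FPKM in A2ARKO libraries and 6.57, 7.66 and 4.39 FPKM in WT libraries. The groups overlapped, and the lowest value was that of WT replicate 3. Without WT replicate 3 the means of Il17ra were 7.11 FPKM in A2ARKO and 7.12 FPKM in WT. The ratio of Il17rc to Il17ra was 2.31, 2.67 and 2.62 in A2ARKO libraries and 2.11, 1.67 and 3.16 in WT libraries, so the WT values spanned the A2ARKO values.

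Il17rd, also known as Sef, encodes a receptor relative first studied as an antagonist of fibroblast growth factor signalling. Il17rd (chromosome 14, 27038941 to 27107286, plus strand) had 1.03, 1 and 0.90 FPKM in A2ARKO libraries and 1.71, 2.32 and 4.72 FPKM in WT libraries. Every A2ARKO library lay below every WT library, yet the WT libraries themselves differed by a factor of 2.76. The mean was 0.977 ± 0.0681 FPKM in A2ARKO and 2.92 ± 1.59 FPKM in WT (SD, n = 3 each), and the WT mean was 2.02 FPKM without WT replicate 3. Within each genotype the library with the lowest chondrocyte marker sum had the highest Il17rd: WT replicate 3 at 386 FPKM of markers and A2ARKO replicate 1 at 2142 FPKM. In A2ARKO this rests on 1.03 against 1 FPKM. Across genotypes the order did not hold: WT replicate 1, with the highest marker sum of 24242 FPKM, had more Il17rd than any A2ARKO library. Il17re, encoding the receptor for IL-17C known from epithelia (chromosome 6, 113458484 to 113470758, plus strand), was barely detected, with 0.09, 0.03 and 0.04 FPKM in A2ARKO libraries and 0.09, 0.03 and 0.01 FPKM in WT libraries. With annotated exon lengths these correspond to about 10.2 to 27.0 reads per library in A2ARKO and 3.1 to 21.8 reads in WT, and no difference could be read at that depth. Il17rb, the receptor gene for IL-25 and not one of the 9, had 0.46, 0.88 and 0.59 FPKM in A2ARKO libraries and 0.84, 0.15 and 0.22 FPKM in WT libraries.

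Traf3ip2, the Act1 gene, was higher in every A2ARKO library than in any WT library, with little spread within either genotype. Traf3ip2 (chromosome 10, 39612934 to 39655307, plus strand) had 10.3, 9.89 and 10.97 FPKM in A2ARKO libraries and 3.47, 3.23 and 3.33 FPKM in WT libraries. The mean was 10.4 ± 0.544 FPKM in A2ARKO and 3.34 ± 0.121 FPKM in WT (SD, n = 3 each), a ratio of 3.11, and the log2 difference was 1.39 with a standard error of 0.077. The WT libraries differed by a factor of 1.07, and the ratio stayed between 3.02 and 3.18 whichever library was left out. Relative to Il17ra, Traf3ip2 stood at 1.35, 1.52 and 1.53 in A2ARKO libraries and at 0.528, 0.422 and 0.759 in WT libraries. By FPKM the adaptor transcript thus exceeded that of the shared receptor subunit in A2ARKO and was below it in WT. Which of them is higher depends on the gene lengths used, which are not given. Traf3ip2 lies on the chromosome of Adora2a, 35.7 Mb away. An antisense gene, E130307A14Rik, shares 293 exon bases with Traf3ip2 on the other strand. E130307A14Rik read 0.42 to 0.49 FPKM in A2ARKO and 0.69 to 0.89 FPKM in WT, and its difference was not tested. With no strand setting given for the counting, reads of the shared bases cannot be assigned to either gene.

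Nfkbiz, encoding the atypical nuclear IkappaB protein IkappaB-zeta, was 7.44 times as abundant in A2ARKO. Nfkbiz (chromosome 16, 55811375 to 55838899, minus strand) had 17.5, 24.1 and 31.0 FPKM in A2ARKO libraries and 1.90, 4.16 and 3.70 FPKM in WT libraries. The lowest A2ARKO value was 4.21 times the highest WT value, while the spread within A2ARKO was wider than for Traf3ip2. The mean was 24.2 ± 6.73 FPKM in A2ARKO and 3.25 ± 1.19 FPKM in WT (SD, n = 3 each), and the log2 difference was 2.57 with a standard error of 0.29.

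Zc3h12a, the Regnase-1 gene, had the largest difference of the 9. Zc3h12a (chromosome 4, 125118423 to 125127840, minus strand) had 36.5, 35.98 and 42.4 FPKM in A2ARKO libraries and 2.78, 5.53 and 4.40 FPKM in WT libraries. The mean was 38.3 ± 3.59 FPKM in A2ARKO and 4.24 ± 1.38 FPKM in WT (SD, n = 3 each), a ratio of 9.04. The log2 difference of 2.94, with a standard error of 0.21, ranked 32 among 11595 tested genes, where Nfkbiz ranked 40 and Traf3ip2 215. The highest WT value was that of WT replicate 2, the library richest in macrophage markers. With 1 library left out, the ratio ran from 7.71 (without WT replicate 1) to 10.7 (without WT replicate 2).

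Both C/EBP members were higher in A2ARKO as well. Cebpb, which encodes the basic leucine zipper factor C/EBPbeta (chromosome 2, 167688915 to 167690418, plus strand), had 45.9, 41.4 and 44.1 FPKM in A2ARKO libraries and 15.6, 21.9 and 11.2 FPKM in WT libraries, a ratio of means of 2.70. Cebpd, encoding the related factor C/EBPdelta (chromosome 16, 15887286 to 15891031, plus strand), was the most abundant of the 9 in every library, with 141, 149 and 181 FPKM in A2ARKO libraries and 31.4, 50.1 and 31.6 FPKM in WT libraries. The groups did not overlap for either gene, and WT replicate 2 was the highest WT library for both. The means of Cebpd were 157 ± 21.004 FPKM in A2ARKO and 37.7 ± 10.7 FPKM in WT (SD, n = 3 each), at a log2 difference of 2.06 with a standard error of 0.21. Those of Cebpb were 43.8 ± 2.29 FPKM in A2ARKO and 16.2 ± 5.39 FPKM in WT (SD, n = 3 each), at 1.43 with a standard error of 0.23. Cebpd exceeded Cebpb by factors of 3.08, 3.59 and 4.10 in A2ARKO libraries and of 2.02, 2.28 and 2.82 in WT libraries. The sources used here give no strand setting for the counting, so reads of overlapping genes on the other strand cannot be told apart. Cebpd shares 562 exon bases with Spidr, which read 14.6, 16.1 and 18.1 FPKM in A2ARKO libraries and 5.14, 9.81 and 10.04 FPKM in WT libraries. Cebpb shares 312 with Tmem189, which read 10.3 to 11.3 FPKM in A2ARKO and 9.36 to 13.2 FPKM in WT.

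**Figure D2:**
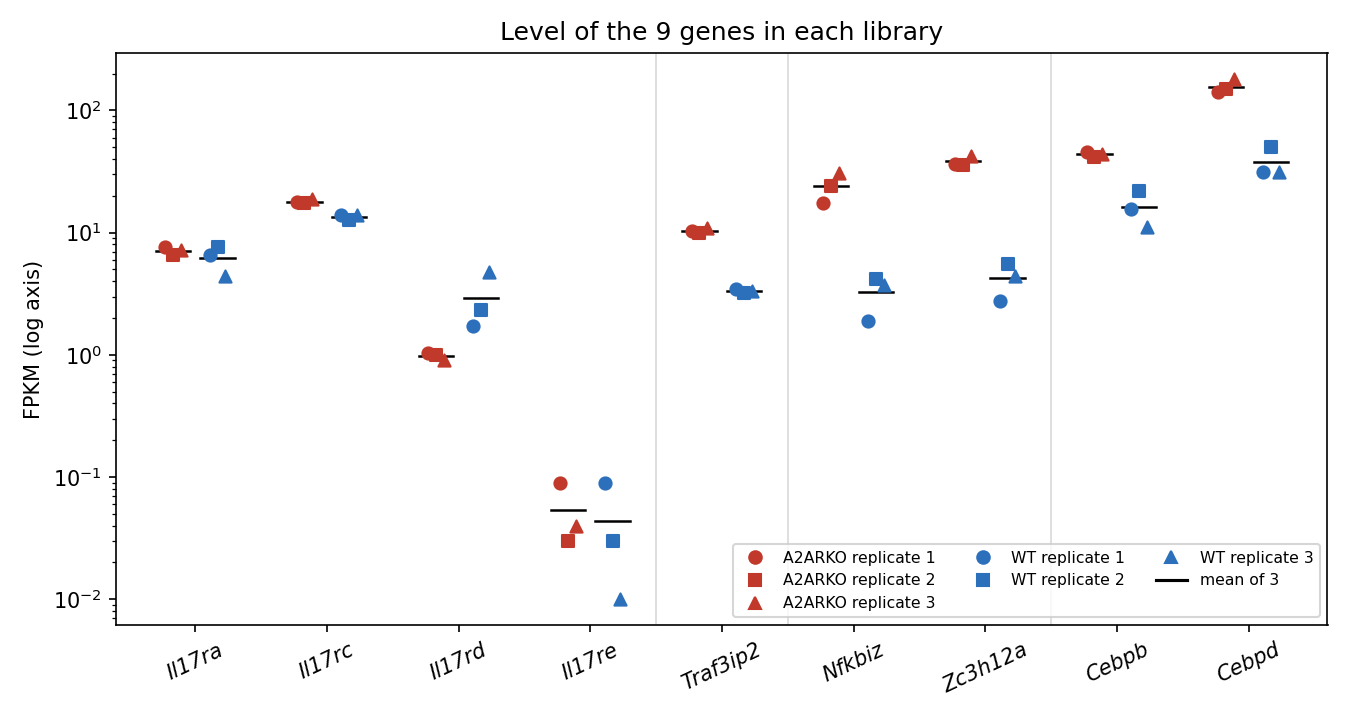
FPKM (log axis) of each of the 9 genes in the 3 A2ARKO and 3 WT libraries, 1 point per library with a bar at the mean. Traf3ip2, Nfkbiz, Zc3h12a, Cebpb, Cebpd and, by a smaller margin, Il17rc lie higher in all 3 A2ARKO libraries, Il17rd lies lower, and Il17ra and Il17re overlap.

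The order of levels among the 9 differed between genotypes. In all 3 A2ARKO libraries Cebpd was followed by Cebpb and Zc3h12a, then by Nfkbiz and Il17rc, then by Traf3ip2, Il17ra, Il17rd and Il17re. Cebpb exceeded Zc3h12a in each of the 3, although their ranges over the A2ARKO libraries overlapped. Il17rc exceeded Nfkbiz in A2ARKO replicate 1 and was below it in the other two. In the WT libraries Cebpd came first and Il17re last, and Il17rc exceeded Il17ra, Traf3ip2, Nfkbiz and Zc3h12a in each of them. Il17ra, Zc3h12a, Traf3ip2, Nfkbiz and Il17rd all lay between 1.71 and 7.66 FPKM in WT and changed places from library to library.

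Promoter sequences are shown for Zc3h12a and Cebpb, the pair of higher downstream genes with an entry in the RefSeq promoter table (build GRCm38.p6), and for Il17rd, the receptor gene with lower values in A2ARKO. Each runs 5′ to 3′ on the gene's strand from 250 bases before the transcription start to 50 after it. Capitals mark the letters of the cAMP response half-site TGACG and of the C/EBP motif TTNNGNAA, each searched on both strands.
Zc3h12a, chr4:125127832-125128131, minus strand: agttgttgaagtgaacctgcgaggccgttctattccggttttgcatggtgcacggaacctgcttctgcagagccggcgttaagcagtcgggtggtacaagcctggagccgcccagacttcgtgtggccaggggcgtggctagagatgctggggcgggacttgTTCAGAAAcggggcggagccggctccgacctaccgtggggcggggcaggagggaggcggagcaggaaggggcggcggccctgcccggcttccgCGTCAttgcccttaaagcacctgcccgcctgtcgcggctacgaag
Cebpb, chr2:167688665-167688964, plus strand: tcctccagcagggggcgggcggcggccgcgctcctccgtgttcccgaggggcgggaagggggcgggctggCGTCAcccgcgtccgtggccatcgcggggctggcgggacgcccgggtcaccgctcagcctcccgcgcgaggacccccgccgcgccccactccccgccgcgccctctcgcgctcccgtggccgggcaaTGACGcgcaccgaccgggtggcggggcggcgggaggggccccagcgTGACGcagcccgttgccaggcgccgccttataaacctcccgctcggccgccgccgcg
Il17rd, chr14:27038751-27039050, plus strand: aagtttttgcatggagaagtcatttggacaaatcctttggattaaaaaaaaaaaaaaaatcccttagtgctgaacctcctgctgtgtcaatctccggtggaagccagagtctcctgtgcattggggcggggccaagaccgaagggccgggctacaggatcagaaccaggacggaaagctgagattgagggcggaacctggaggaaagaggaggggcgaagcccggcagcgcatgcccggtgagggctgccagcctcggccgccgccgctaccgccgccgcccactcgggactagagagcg

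The Cebpb window held the cAMP response half-site 3 times, beginning 180, 53 and 7 bases before the start, the first of them on the opposite strand. The Zc3h12a window held it once, on the opposite strand just after the start, and held the C/EBP letters once, 88 bases before the start. Among 32851 promoter windows of the same length, 20.8% held the half-site and 40.7% the C/EBP letters. Neither motif was in the Il17rd or Il17rc window, and the Il17re window held the C/EBP letters once. The NF-kappaB consensus, searched on both strands, was in none of the 5 windows and in 4.51% of all windows. The table holds entries for 5 of the 9 genes, and Il17ra, Traf3ip2, Nfkbiz and Cebpd are named only. The motifs share no bases in these windows, and a match describes the letters of a short window and not the binding of a factor.

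Across all genes, limma on log2(FPKM + 1) placed 384 of 11595 tested genes (3.31%) past an adjusted p of 0.05 as higher in A2ARKO and 205 (1.77%) as lower. Of the 9 genes 8 passed the filter on low values, Il17re being the one left out, and 6 of the 8 were past that threshold as higher: Il17rc, Traf3ip2, Nfkbiz, Zc3h12a, Cebpb and Cebpd. Il17ra and Il17rd were not. The median log2 difference of the 8 was 1.41, beside 0.0020 over all tested genes. Groups did not overlap for 7 of the 9, 6 higher and 1 lower in A2ARKO, where 18.0% of all tested genes lay wholly above and 14.9% wholly below. Since the set was chosen from this contrast, nothing is read from these counts. Leaving out A2ARKO replicates 1, 2 and 3 in turn left 4, 2 and 2 of the 8 past the threshold, and leaving out any one WT library left 5. Over all 11595 genes, 120, 50 and 75 were called without A2ARKO replicates 1, 2 and 3, and 900, 300 and 852 without WT replicates 1, 2 and 3, against 589 with all libraries. Traf3ip2 and Zc3h12a were among the genes called in each of these 6 fits, and Il17rc in none. These calls describe the chosen genes and are no support for their difference.

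**Figure D3:**
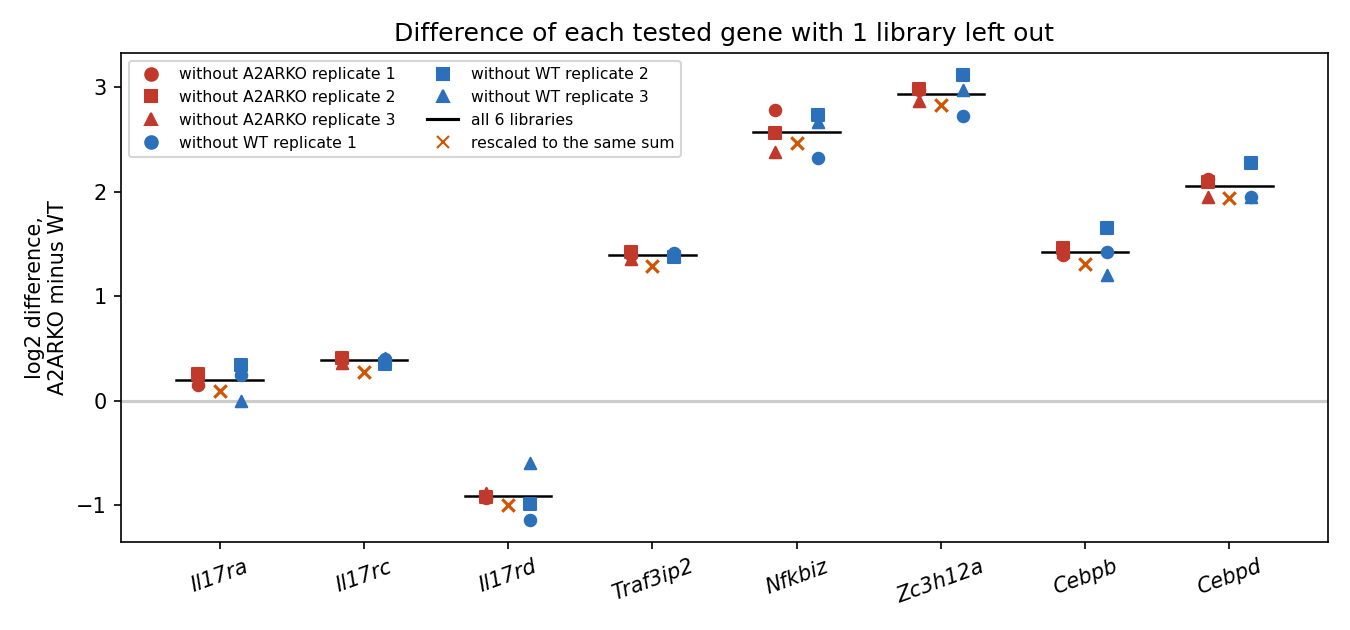
Log2 difference (A2ARKO minus WT, of log2(FPKM + 1)) of the 8 tested genes for fits that omit 1 library each, for all 6 libraries (bar) and with every library rescaled to 1 common sum (cross). Traf3ip2 stays between 1.35 and 1.42 with a library left out, whereas Il17ra runs from 0.000525 to 0.34 and Il17rd from -1.14 to -0.60.

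Among the IL-17 ligand genes, Il17d alone was above the filter and it was lower in A2ARKO. Il17d had 2.73, 2.59 and 2.89 FPKM in A2ARKO libraries and 5.33, 4.78 and 5.62 FPKM in WT libraries, a log2 difference of -0.74 (standard error 0.089, limma adjusted p = 0.0141). It did not pass without A2ARKO replicates 1, 2 and 3 (limma adjusted p of 0.0640, 0.0919 and 0.0749). Il17a was listed at 0 in all 6 libraries. Il17f was listed at 0.01 FPKM or less in A2ARKO libraries and at 0 in WT libraries, and Il17b, Il17c and Il25 did not exceed 0.14 FPKM in A2ARKO or 0.21 FPKM in WT. Transcripts of the ligands that use the IL-17RA and IL-17RC receptor were thus at or near 0 in these cell preparations, as were the T cell receptor complex genes Cd3d, Cd3e and Cd3g, at no more than 0.01 FPKM in A2ARKO and 0.24 FPKM in WT.

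Of 20 genes for proximal signalling, 2 were called higher, 0 were called lower and 18 did not pass. Over all genes, 3.31% were called higher and 1.77% lower. The median log2 difference of the 20 was 0.13. An unadjusted limma p below 0.05 was found for 8 of the 20. The share of all genes below that unadjusted p was not computed, so nothing is read from such counts, here or below. Traf3, encoding a TRAF protein that restrains IL-17 receptor signalling, had 7.95, 7.97 and 8.66 FPKM in A2ARKO libraries and 5.48, 6.30 and 5.71 FPKM in WT libraries (log2 difference 0.43, standard error 0.084, limma adjusted p = 0.0457). Nfkb1, an NF-kappaB subunit gene, had 9.83, 9.46 and 10.6 FPKM in A2ARKO libraries and 7.27, 7.16 and 6.84 FPKM in WT libraries (log2 difference 0.44, standard error 0.077, limma adjusted p = 0.0371). Traf3 passed in none of the 6 fits with a library left out (limma adjusted p of 0.0590 to 0.191), and Nfkb1 only without WT replicate 1. After rescaling to the same sum neither passed (limma adjusted p of 0.239 and 0.177). Traf6, encoding the ubiquitin ligase that Act1 recruits, did not pass, with 2.46, 2.48 and 2.79 FPKM in A2ARKO libraries and 2.89, 3.06 and 2.70 FPKM in WT libraries. Of genes named after their values were seen, as Traf6 was, Tnfaip3, encoding the feedback inhibitor A20, had 2.71, 2.85 and 3.53 FPKM in A2ARKO libraries and 0.43, 1.73 and 0.53 FPKM in WT libraries. Its log2 difference was 1.15 (limma adjusted p = 0.0630), beside 1.39 for Traf3ip2. Only 1 WT library reached 1 FPKM for Tnfaip3, so it needed its A2ARKO values to pass the filter. Ikbke, encoding a kinase known to phosphorylate Act1, had 5.05, 4.85 and 5.17 FPKM in A2ARKO libraries and 1.61, 2.83 and 2.99 FPKM in WT libraries (log2 difference 0.82, limma adjusted p = 0.0552). The groups did not overlap for either gene. Of the 20 genes, 8 lay wholly above and 1 wholly below WT, beside 18.0% and 14.9% of all tested genes. The lower one was Tab2, with 22.4, 22.6 and 23.0 FPKM in A2ARKO libraries and 29.8, 31.4 and 25.6 FPKM in WT libraries (limma adjusted p = 0.108).

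None of 12 tested genes of mRNA stability control passed by limma, 1 at an unadjusted p below 0.05, and their median log2 difference was 0.0021. Ddx3x, an RNA helicase gene, and Zfp36l2, encoding a protein that promotes decay of AU-rich mRNAs, had the smallest p of the list. Ddx3x had 62.6, 66.3 and 72.6 FPKM in A2ARKO libraries and 64.1, 56.7 and 57.0 FPKM in WT libraries (limma adjusted p = 0.356). Zfp36l2 had 33.8, 34.1 and 31.9 FPKM in A2ARKO libraries and 47.9, 39.9 and 44.3 FPKM in WT libraries (limma adjusted p = 0.0768). Zc3h12c, the one other Regnase gene above the filter and named after its values were seen, had 1.58, 1.36 and 1.53 FPKM in A2ARKO libraries and 1.36, 1.5 and 1.73 FPKM in WT libraries, where Zc3h12a differed 9.04-fold.

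None of 7 tested relatives of the C/EBP and IkappaB members passed by limma, and their median log2 difference was 0.32. An unadjusted limma p below 0.05 was found for 5, a count with no share of all genes beside it. Nfkbia, encoding the inhibitor IkappaBalpha that NF-kappaB itself induces, had 76.9, 74.6 and 79.5 FPKM in A2ARKO libraries and 14.1, 39.2 and 24.8 FPKM in WT libraries (log2 difference 1.64, standard error 0.34, limma adjusted p = 0.0520). It passed without WT replicate 1 (limma adjusted p = 0.0291) and without WT replicate 2 (0.0315), and in the other 4 fits with a library left out it did not. Ddit3, encoding the stress-induced C/EBP relative CHOP, had 22.7, 16.8 and 20.98 FPKM in A2ARKO libraries and 72.7, 47.0 and 33.8 FPKM in WT libraries (log2 difference -1.24, standard error 0.28, limma adjusted p = 0.0619). It passed as lower without WT replicate 1 (limma adjusted p = 0.0476), without WT replicate 3 (0.0315), after rescaling to the same sum (0.0271) and after quantile normalization (0.0481). Of genes named after their values were seen, the C/EBP gene Cebpa had 56.9, 29.3 and 28.3 FPKM in A2ARKO libraries and 15.6, 18.7 and 23.2 FPKM in WT libraries (limma adjusted p = 0.134). The atypical IkappaB gene Bcl3 had 18.7, 19.7 and 24.03 FPKM in A2ARKO libraries and 2.44, 11.8 and 5.58 FPKM in WT libraries (limma adjusted p = 0.0872). For both, every A2ARKO library lay above every WT library, the side on which Cebpb, Cebpd and Nfkbiz lay, whereas Ddit3 and Cebpg lay on the other. Cebpg had 8.47, 8.92 and 8.89 FPKM in A2ARKO libraries and 11.58, 10.26 and 12.18 FPKM in WT libraries (limma adjusted p = 0.0839). Of the 7 relatives, 3 lay wholly above and 2 wholly below WT, beside 18.0% and 14.9% of all tested genes.

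Of 20 tested IL-17 target genes, 13 rose, 0 fell and 7 did not pass, beside 3.31% of all genes called higher. The filter fixes part of that direction: Cxcl3, Ccl20, Lif and Csf3, 4 of the 13, reached 1 FPKM in no WT library and were tested only through their A2ARKO values. Another 6 targets reached it in 1 or 2 WT libraries and so also needed A2ARKO values to pass the filter. Of these 6, 3 rose (Cxcl1, Cxcl2 and Il6) and 0 fell. Of the 10 targets at 1 FPKM or more in every WT library, 6 rose and 0 fell. The list was written with the rise of several of its genes known, so its direction is no independent evidence. The 4 largest called differences were those of Saa3, a serum amyloid A gene, Lcn2, encoding lipocalin 2, Mmp3, encoding stromelysin, and Cxcl1, a neutrophil chemokine gene, at log2 differences of 8.20, 7.10, 6.81 and 5.60 (limma adjusted p of 0.0330, 0.00319, 0.0210 and 0.0150). Lcn2 had 1612, 2415 and 4000 FPKM in A2ARKO libraries and 12.5, 31.5 and 12.8 FPKM in WT libraries, and it passed in all 6 fits with a library left out. Saa3, Mmp3 and Cxcl1 lost the call with any A2ARKO library left out (limma adjusted p of 0.0641 to 0.134), and Saa3 also not without WT replicate 3 (0.0603). The others that rose were Cxcl2, Cxcl3, Ccl20, Il6, Lif, Csf3, Steap4, Ptgs2 and Timp1, at log2 differences of 0.81 to 3.19. The number of targets that rose was 5, 4 and 4 without A2ARKO replicates 1, 2 and 3 and 15, 14 and 10 without WT replicates 1, 2 and 3. Among genes named after their values were seen, the targets S100a8, S100a9 and Mmp9 were highest in WT replicate 2, the library richest in leukocyte markers. S100a8 had 1.17, 1.78 and 1.91 FPKM in A2ARKO libraries and 0.10, 4.19 and 0.16 FPKM in WT libraries. S100a9 had 0.04, 0.00 and 0.04 FPKM in A2ARKO libraries and 0.00, 7.99 and 0.00 FPKM in WT libraries. Mmp9 had 1.96, 0.90 and 1.19 FPKM in A2ARKO libraries and 0.49, 7.5 and 0.39 FPKM in WT libraries. For S100a8 and Mmp9 every A2ARKO library lay above WT replicates 1 and 3.

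**Figure D4:**
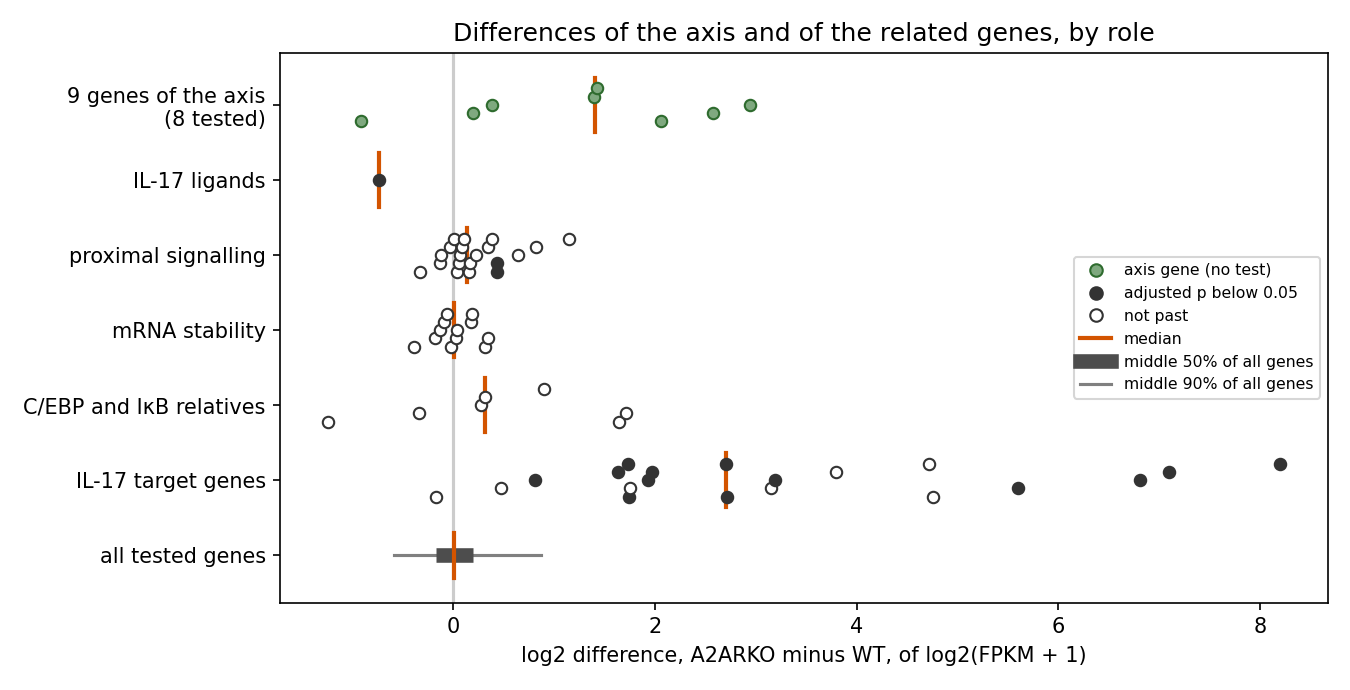
Log2 difference (A2ARKO minus WT, of log2(FPKM + 1)) of the 8 tested axis genes and of the tested related genes by role, 1 point per gene, with the median of each row and, at the bottom, the middle 50% and 90% of all 11595 tested genes. The axis genes have a median of 1.41 and the mRNA stability genes one of 0.0021. The median of the target genes includes 4 genes tested only through their A2ARKO values and 6 that also needed A2ARKO values to pass the filter.

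The genes whose pattern over the 6 libraries was most like that of Traf3ip2 were Gypc, Nadk, Ctps, U90926 and Trib1, by Pearson's r of log2(FPKM + 1) from 0.9941 to 0.9979. Gypc, encoding a red cell membrane glycophorin, averaged 64.0 ± 3.78 FPKM in A2ARKO and 21.9 ± 0.580 FPKM in WT (SD, n = 3 each). Those most like Nfkbiz were the death receptor gene Fas, the immediate early gene Ier3, the cathelicidin gene Camp, the syndecan gene Sdc1 and Dnph1, at r from 0.9907 to 0.9983. Fas averaged 32.4 ± 3.92 FPKM in A2ARKO and 10.98 ± 1.75 FPKM in WT (SD, n = 3 each). The 6 libraries fall into genotype groups, so r mainly reflects the difference between them. It is a description of likeness, with no p.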

How the data were processed

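RNA sequencing of 3 A2ARKO and 3 WT litter pools was deposited by the authors as 1 table of FPKM, rounded to 2 decimals. HTSeq and mm10 are named, per the submitters' processing notes. The sources used here do not give the aligner, annotation, gene lengths or strand setting. All 6 columns were used, matched to samples by title, and genotype was the grouping.

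The 11595 genes that reached 1 FPKM in 3 or more libraries were tested with limma 3.58.1 (R 4.3.3, trended eBayes, two-sided) on log2(FPKM + 1), with no block on replicate number, by Benjamini-Hochberg adjustment over all genes and a threshold of 0.05. Fold differences on this scale understate the change of low genes. With 3 against 3 libraries an exact permutation test cannot go below p = 0.1. The fit was tested on simulated data. The 9 genes, the related-gene lists and the markers were chosen with earlier results of these data known. Named related genes are all ligands and, per list, up to 4 called genes with the largest difference or else 2 with the smallest p.

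Depth was read from steps between low values of genes up to 150 nt long, using exon lengths of GENCODE M21 (GRCm38), where 99.6% or more of values up to 10 reads were whole within 0.1 read. These reads are approximate. Libraries of 1 genotype differed by more than counting noise in every pair (median chi-square at least 6.16 times it). Alternatives were another pseudocount, other filters, rescaling, quantile normalization, a replicate block and leaving out each library.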

Additional observations from a re-analysis of the deposited data

How the results depend on the processing

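The log2 differences of the 8 tested axis genes kept their sign under every alternative run. For Il17ra that says little: without WT replicate 3 its difference was 0.000525, with a standard error of 0.11. Of the 8, 6 were past the threshold with a pseudocount of 0.1 and with a filter on mean FPKM, and 5 after rescaling to the same sum or quantile normalization, where Il17rc was not. With no filter, which adjusts over 47480 genes, 2 remained (Traf3ip2 and Zc3h12a), and of the related genes 2 were called higher and 0 lower (27 and 5 at an unadjusted p below 0.05), against 15 and 1 with the filter. Over all genes 93 were called with no filter, against 589 with it. The unadjusted counts have no share of all genes beside them, and nothing is read from them. Rescaling and quantile normalization each called 2 related genes lower. With each library left out, 2 to 5 of the axis genes, 4 to 18 related genes as higher and 0 to 3 as lower were past the threshold. The lowest counts came without an A2ARKO library.

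With the replicate number as a block, limma called 2 of all 11595 genes. It called 0 of the 8 axis genes and 0 related genes in either direction. At an unadjusted limma p below 0.05 were 25 related genes as higher and 5 as lower. No share of all genes stands beside these unadjusted counts, so nothing is read from them. Deviations of same-numbered libraries from their group means correlated, across genes, at -0.521, -0.325 and -0.387, and no library correlated best with its own number. Such deviations also carry the differences in makeup, so they cannot show whether same-numbered libraries shared a preparation or a batch. The labels give the number alone. Counting depth limits Il17re and the ligand genes other than Il17d, which rest on few reads.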
